A study of Mus musculus with 18 samples.

Results

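The genes described here encode the phase II conjugating enzymes of mouse liver tumors: the UDP-glucuronosyltransferases (UGT), the glutathione S-transferases (GST) and the cytosolic sulfotransferases (SULT). Members were the protein coding genes of the tumor count table whose symbol is an Ugt1a, Ugt2a, Ugt2b or Ugt3a gene, a Gst gene of the alpha, mu, pi, theta, kappa or omega class, or a numbered Sult gene. The rule took 58 of 43346 genes, of which 20 were UGT, 20 GST and 18 SULT genes, and it used no measured value. RNA was sequenced from 12 mouse liver tumors. All tumors carried myr-AKT, an activated form of the kinase AKT. In addition, 6 of them carried YAPS127A (YAP-S), a form of the transcriptional co-activator YAP that the Hippo kinases cannot retain in the cytoplasm through that serine. The other 6 carried YAP S127A/Y357F (YAP-SY), which also lacks a tyrosine phosphorylated by Src family kinases. Each model supplied 3 tumors labelled cholangiocarcinoma (CCA) and 3 labelled mixed. The tumors are named by their label numbers: YAP-S CCA 3, 4 and 5, YAP-SY CCA 1, 6 and 8, YAP-S mixed 2, 7 and 9, and YAP-SY mixed 3, 5 and 9. The labels give neither the animals' age or sex nor whether tumors of a group came from separate animals, so p-values measure the spread between these tumors. SB1, a cell line with the YAP-S-CCA genotype label, supplied 3 further samples, and SY1 cells were not analysed here.

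Conjugation makes lipophilic drugs, hormones, bilirubin and bile acids soluble enough to be excreted. UGT enzymes in the endoplasmic reticulum attach glucuronic acid from UDP-glucuronic acid, GST enzymes attach glutathione to electrophiles, and SULT enzymes attach sulfate from the donor PAPS. All 3 families are abundant in hepatocytes, where nuclear receptors and the stress regulator NRF2 control many of them, and bile duct cells hold fewer of these enzymes.

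Values are CPM (counts scaled to a common library size) on libraries scaled by TMM, a scaling that centres most genes between tumors. Of the 58 members 48 passed the filter on low counts, all 20 UGT, 18 GST and 10 SULT genes. Total counts ran from 30656499 to 130035221 per tumor. YAP-SY CCA 1 stood apart, with counts for 18207 genes, where the other tumors had 20440 to 24391. Markers of cell types moved between the CCA groups. The summed level of 12 hepatocyte markers ran from 59500 to 72890 CPM in the YAP-S CCA tumors, 161500 to 180100 in YAP-SY CCA, 102900 to 107600 in YAP-S mixed and 104100 to 134800 in YAP-SY mixed tumors. That of 12 cholangiocyte markers ran from 7695 to 11040, 2793 to 4254, 9606 to 10320 and 4376 to 16570 CPM in the same order. For Krt19, a keratin of bile duct cells, the YAP-S CCA tumors held 56.7, 88.4 and 35.8 CPM and the YAP-SY CCA tumors 15.6, 2.52 and 1.45 CPM, so the defining cholangiocyte marker was low in the latter in spite of their label. Alb, the hepatocyte albumin gene, was high in all 12 tumors. The part of this shift in cell markers in the results that follow was not tested. In these bulk samples fewer cells of a type and less RNA per cell cannot be told apart.

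Conjugating enzymes were mostly higher in YAP-SY than in YAP-S CCA tumors. Of the 48 members tested 36 rose, against a background of 18.3% of all 18318 genes tested, and 2 fell, against 20.8% (edgeR quasi-likelihood test, Benjamini-Hochberg adjusted p under 0.05). The 2 that fell were Gstm2 and Sult2b1. The median log2 fold change was 1.14 over the members and 0 over all genes. By family, 19 of 20 UGT genes rose (median 1.24), 11 of 18 GST genes rose and 1 fell (median 0.74), and 6 of 10 tested SULT genes rose and 1 fell (median 1.31). The 9 Ugt1a genes share reads and are not independent members; outside them 10 of 11 UGT genes rose (median 1.54). Without YAP-SY CCA 1, 37 members rose and 1 fell. With scaling by library size alone, the median log2 fold change over all genes was -0.56. Then 26 members rose, against 4.15% of all genes, and 3 fell, against 44%. The 19 UGT calls were also made on that scale, while 8 of the 11 GST rises were not. In mixed tumors no member passed between the models (background 0; 1 member at an unadjusted p under 0.05, against 3.01% of all genes, and 0 members by DESeq2 or by limma-voom).

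**Figure D1:**
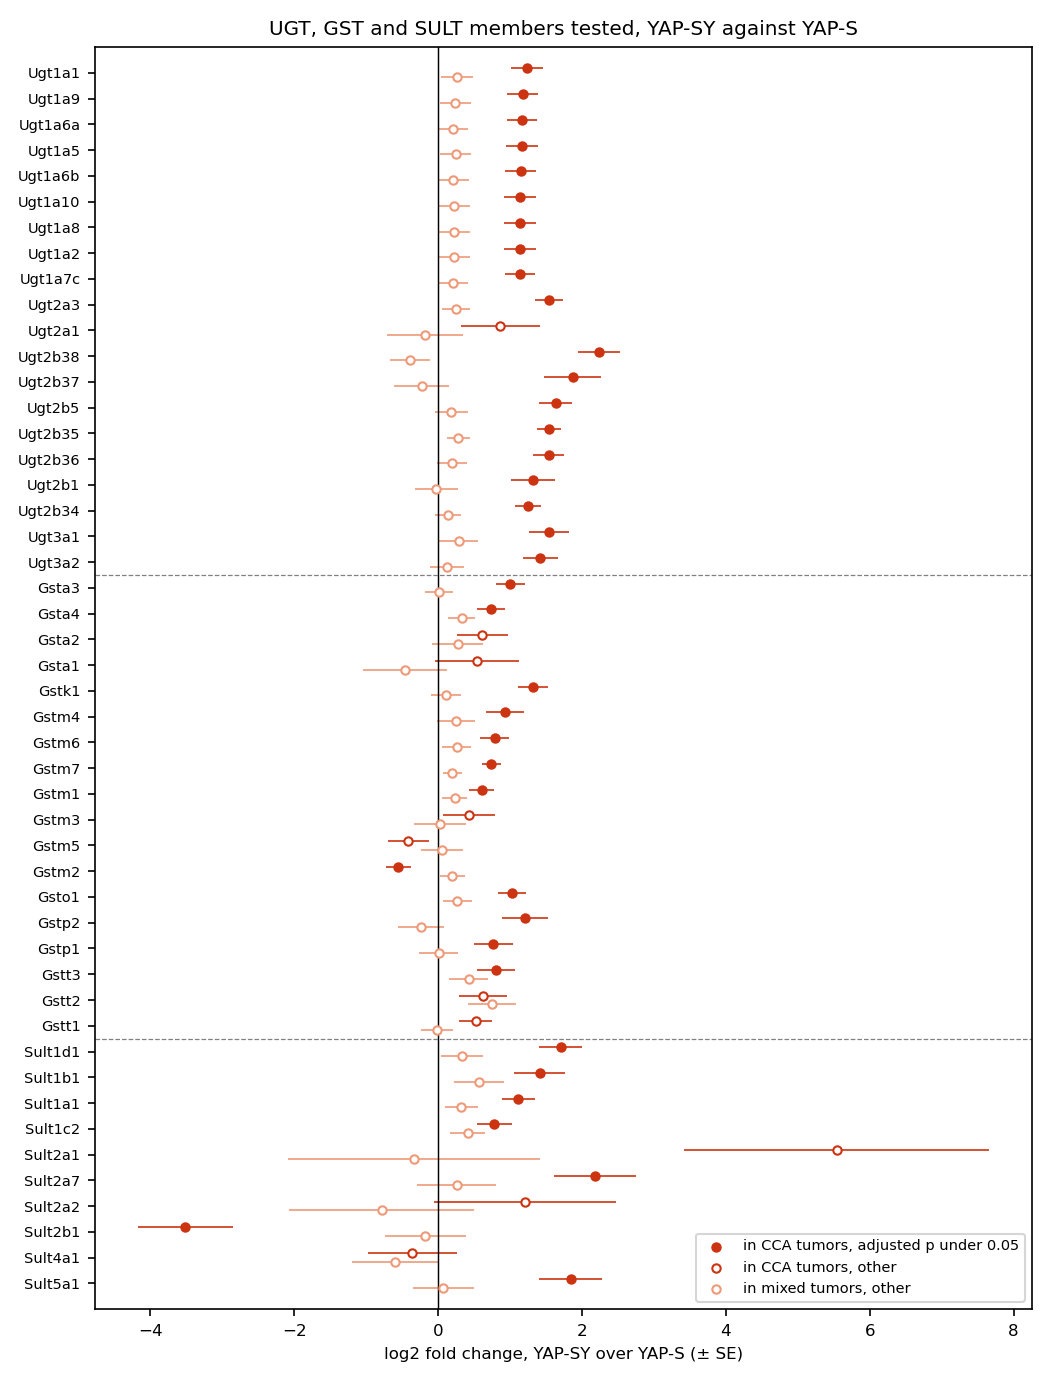
Log2 fold change of YAP-SY over YAP-S, with its standard error, for the 48 members tested, in CCA tumors (dark) and in mixed tumors (light); filled points passed the adjusted threshold of 0.05, and dashed lines part UGT, GST and SULT genes. All 20 UGT points of the CCA comparison lie above 0, Gstm2 and Sult2b1 are the filled points below 0, and no mixed point is filled.

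The UGT2B enzymes glucuronidate steroid hormones, bile acids and many drugs. Their 7 genes lie in 1 cluster on chromosome 5, which Ugt2a3 and Ugt2a1 share, and all 7 rose in YAP-SY CCA (median log2 fold change 1.54). Upstream of each start, the RefSeq promoter windows (mouse GRCm38.p6, 250 bases before to 50 after the start) hold a 13-base stretch of the form GTTANANNTTAAC, whose ends resemble the binding motif of the hepatocyte factor HNF1. It is the window in which the 7 promoters share the most letters, 10 of 13, so its presence in all 7 is a description. It was found on either strand in 8 of the 50 members with a window, the 7 Ugt2b genes and Ugt3a1, and in 30 of 32851 windows of all genes (0.0913%). The windows are shown because these genes moved together; capitals mark the stretch, whose first base lies 61 to 89 bases before the start, and each sequence reads in the direction of the gene.
Ugt2b34, chr5:86906974-86907034, minus strand: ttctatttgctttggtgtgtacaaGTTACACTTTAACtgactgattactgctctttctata
Ugt2b1, chr5:86926556-86926616, minus strand: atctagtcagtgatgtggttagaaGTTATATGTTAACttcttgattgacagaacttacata
Ugt2b35, chr5:87000766-87000826, plus strand: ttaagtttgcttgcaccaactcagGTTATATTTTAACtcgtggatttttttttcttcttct
Ugt2b36, chr5:87092583-87092643, minus strand: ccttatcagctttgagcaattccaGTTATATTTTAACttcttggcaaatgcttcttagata
Ugt2b5, chr5:87140365-87140425, minus strand: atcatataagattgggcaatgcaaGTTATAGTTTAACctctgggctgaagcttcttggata
Ugt2b38, chr5:87424231-87424291, minus strand: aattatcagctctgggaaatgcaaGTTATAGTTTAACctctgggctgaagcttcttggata
The window of Ugt2b37 (chr5:87254830-87254890, minus strand) is identical to that of Ugt2b38. GTTAAT, an arm of the HNF1 motif, was in 13 members' windows and in 7.1% of all. Of 2 forms of the antioxidant response element to which NRF2 binds, TGACNNNGC was in 3 members' windows and in 12.4% of all, and TGAGNNNGC in 11 members' windows and in 17.6% of all. A match of letters is not a measured binding site.

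Ugt2b38 (ENSMUSG00000061906, chr5:87409942-87424203 in mm10) had the largest log2 fold change of the UGT genes. Its level was 8.81, 11.6 and 7.91 CPM in the YAP-S CCA tumors, 46.1, 43.3 and 44.3 in YAP-SY CCA, 31.03, 18.2 and 23.99 in YAP-S mixed and 20.9, 10.2 and 24.6 in YAP-SY mixed tumors. The 3 YAP-SY CCA tumors were close to each other and above the 9 others, and the 3 YAP-S CCA tumors held less than all mixed tumors but YAP-SY mixed 5. The log2 fold change, with its standard error (SE), was 2.24 (SE 0.29, adjusted p 0.000221) in CCA and -0.39 in mixed tumors. The difference between these effects was 2.63 (SE 0.40, adjusted p 0.00371). It was also the only member that passed when CCA was set against mixed tumors of YAP-SY, at 1.26 (SE 0.28, adjusted p 0.0391), where 0.207% of all genes were higher, 2.7% lower and 2.9% either. That call was lost when any 1 of the 6 CCA tumors was left out, and also without YAP-S mixed 9 or YAP-SY mixed 5.

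Ugt2b37 (ENSMUSG00000057425, chr5:87240493-87254804) held 7.84, 9.54 and 6.74 CPM in the YAP-S CCA tumors, 23.3, 44.2 and 20.9 in YAP-SY CCA, 33.97, 19.6 and 25.7 in YAP-S mixed and 32.1, 10.03 and 25.8 in YAP-SY mixed tumors. YAP-S CCA was the low group, and YAP-SY CCA 6 alone exceeded every mixed tumor. The rise in CCA was 1.87 (SE 0.40, adjusted p 0.00302), with a difference from mixed tumors of 2.10 (SE 0.55, adjusted p 0.0253).

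Ugt2b5 (ENSMUSG00000054630, chr5:87124960-87140318) was the most abundant UGT2B transcript. It was at 466, 519.9 and 397 CPM in the YAP-S CCA tumors, 1432, 1684 and 1179 in YAP-SY CCA, 933, 638 and 783 in YAP-S mixed and 1189.5, 697.5 and 788 in YAP-SY mixed tumors. The 3 YAP-S CCA tumors were the lowest of the 12, and YAP-SY CCA 8 fell just short of YAP-SY mixed 3. The change in CCA was 1.64 (SE 0.23, adjusted p 0.000324), and the difference from mixed tumors was 1.45 (SE 0.32, adjusted p 0.0133). Reads of these 3 genes may be exchanged: the coding sequence of Ugt2b5 is 97% identical to that of Ugt2b38 and 94.7% to that of Ugt2b37. Of all 50-base windows of their transcripts 41.7% (Ugt2b5), 37.4% (Ugt2b38) and 18.3% (Ugt2b37) occur in another gene too.

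The remaining 4 UGT2B genes share at most 1.4% of their windows with other genes, and they moved alike. Ugt2b36 (chr5:87065927-87092555) was at 381, 398 and 328 CPM in the YAP-S CCA tumors, 937.5, 1349.5 and 923.5 in YAP-SY CCA, 740.4, 517 and 610.0 in YAP-S mixed and 905.5, 606 and 629 in YAP-SY mixed tumors, a change in CCA of 1.54 (SE 0.21, adjusted p 0.000313). Ugt2b35 (chr5:87000860-87011674) was at 122, 121.5 and 117 CPM in the YAP-S CCA tumors, 324, 387 and 336 in YAP-SY CCA, 241, 172 and 178 in YAP-S mixed and 276, 239 and 204 in YAP-SY mixed tumors, a change of 1.54 (SE 0.16, adjusted p 0.000107). In both genes all YAP-SY CCA tumors were above, and all YAP-S CCA tumors below, the 6 mixed tumors. Ugt2b34 (chr5:86889767-86906937) held 377, 374 and 369 CPM in the YAP-S CCA tumors, 919.7, 945 and 788 in YAP-SY CCA, 712, 576 and 521 in YAP-S mixed and 839, 563 and 588 in YAP-SY mixed tumors, with a rise in CCA of 1.25 (SE 0.18, adjusted p 0.000374). Ugt2b1 (chr5:86916638-86926530) held 347, 408 and 236 CPM in the YAP-S CCA tumors, 606, 1156 and 716 in YAP-SY CCA, 492, 453.5 and 581 in YAP-S mixed and 628, 305 and 566.5 in YAP-SY mixed tumors, with a rise of 1.32 (SE 0.30, adjusted p 0.00487). Ugt2b1 varied more than Ugt2b34 among tumors of a group, and its mixed tumors reached into the range of YAP-SY CCA and, in YAP-SY mixed 5, into that of YAP-S CCA. The effect differed between the histologies by 1.34 (SE 0.30, adjusted p 0.014) for Ugt2b36 and by 1.26 (SE 0.23, adjusted p 0.00634) for Ugt2b35. For Ugt2b34 the difference was 1.11 (SE 0.25, adjusted p 0.0151), and for Ugt2b1 it was 1.35 (SE 0.42, adjusted p 0.0499). Over the 7 genes, UGT2B transcripts summed to 1671 ± 193 CPM per YAP-S CCA tumor and 4635 ± 855 per YAP-SY CCA tumor (SD, n = 3), 2.77 times as much, against 2767 ± 397 and 3049 ± 756 in mixed tumors, 1.10 times as much.

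**Figure D2:**
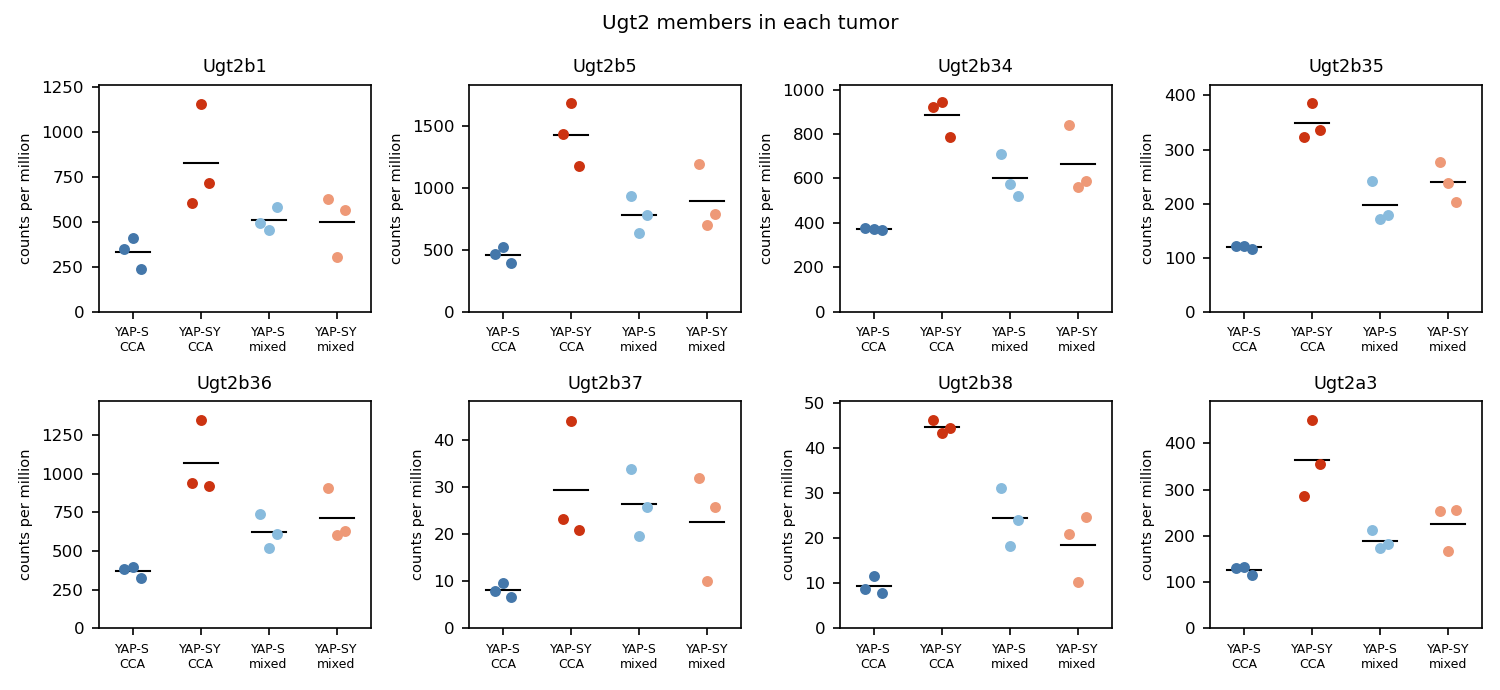
Level in CPM (from 0) of the 7 Ugt2b genes and Ugt2a3 in each tumor, by group; a point is a tumor and a bar the mean of 3. The YAP-S CCA points sit lowest in most panels, YAP-SY CCA points highest, and both mixed groups between them and overlapping each other.

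The UGT2A gene of this cluster, Ugt2a3 (ENSMUSG00000035780, chr5:87324972-87337195), a liver and gut enzyme active on bile acids, followed its neighbours. It was at 129.5, 132 and 114 CPM in the YAP-S CCA tumors, 286, 451 and 355 in YAP-SY CCA, 212, 173 and 182 in YAP-S mixed and 253, 168 and 255 in YAP-SY mixed tumors. The 3 CCA tumors of each model lay on opposite sides of all mixed tumors. The change in CCA was 1.54 (SE 0.20, adjusted p 0.00021), and the difference from mixed tumors was 1.29 (SE 0.28, adjusted p 0.012). The member deposited as Ugt2a1 was at a mean of 1.67 CPM and did not pass (log2 fold change 0.86, adjusted p 0.232). Its identifier has the symbol Ugt2a2 in another reference, and 93.6% of its 50-base windows occur in another gene too, so its level is uncertain. The UGT3A enzymes use other sugar donors than UDP-glucuronic acid. Ugt3a1 (ENSMUSG00000072664, chr15:9273319-9315032) held 34.3, 38.6 and 27.7 CPM in the YAP-S CCA tumors, 66.6, 143 and 84.2 in YAP-SY CCA, 65.7, 46.5 and 58.9 in YAP-S mixed and 86.9, 50.3 and 71.8 in YAP-SY mixed tumors. Ugt3a2 (ENSMUSG00000049152, chr15:9335550-9370955) held 203, 220.5 and 160.4 CPM in the YAP-S CCA tumors, 427, 691 and 442 in YAP-SY CCA, 363, 249.7 and 348 in YAP-S mixed and 428, 264 and 353 in YAP-SY mixed tumors. In both genes YAP-SY CCA 6 was the highest of the 12 tumors and the YAP-S CCA tumors were the lowest 3. The changes in CCA were 1.55 (SE 0.28, adjusted p 0.0012) for Ugt3a1 and 1.42 (SE 0.24, adjusted p 0.000877) for Ugt3a2. The differences from mixed tumors were 1.26 (SE 0.38, adjusted p 0.0443) and 1.30 (SE 0.33, adjusted p 0.0241).

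The Ugt1a locus on chromosome 1 makes 9 enzymes by joining 1 of several first exons to 4 common exons (88215044 to 88215175, 88215795 to 88215882, 88216138 to 88216357 and 88218127 to 88218997). Ugt1a1 is the enzyme that conjugates bilirubin. In the deposited table reads in the common exons appear to count for each of the 9 genes: within a tumor the highest of them was 1.33 to 1.53 times the lowest, and Ugt1a8 was the lowest in 11 of 12 tumors. The junctions of 5 first exons (lower case, last 24 bases) with the common exon 2 (capitals, 36 bases, the same in all 9) are shown to make clear which part can tell the genes apart. They were read from GENCODE M21 transcripts on GRCm38, plus strand.
Ugt1a1, exon 1 chr1:88211959-88212871: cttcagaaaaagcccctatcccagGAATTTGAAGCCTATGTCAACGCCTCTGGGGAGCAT
Ugt1a9, exon 1 chr1:88070800-88071678: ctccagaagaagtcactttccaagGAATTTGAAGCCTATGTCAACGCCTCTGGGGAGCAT
Ugt1a7c, exon 1 chr1:88095064-88095978: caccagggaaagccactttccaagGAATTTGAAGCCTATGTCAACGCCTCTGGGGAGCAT
Ugt1a6a, exon 1 chr1:88138378-88139331: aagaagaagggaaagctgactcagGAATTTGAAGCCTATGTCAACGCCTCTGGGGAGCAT
Ugt1a5, exon 1 chr1:88166012-88166903: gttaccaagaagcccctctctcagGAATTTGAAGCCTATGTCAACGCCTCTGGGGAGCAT
The stretch of Ugt1a6b equals that of Ugt1a6a, and over the whole first exon the pair are 96.5% identical, so their counts are uncertain. The stretch of Ugt1a2 equals that of Ugt1a5.

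As deposited, Ugt1a1 (ENSMUSG00000089960, chr1:88211959-88218997) was at 549, 547.5 and 395 CPM in the YAP-S CCA tumors, 1169, 1254 and 1091 in YAP-SY CCA, 701, 527 and 710.0 in YAP-S mixed and 898, 519 and 899 in YAP-SY mixed tumors. The YAP-SY CCA tumors were above all others, and YAP-S mixed 7 and YAP-SY mixed 5 lay among the YAP-S CCA tumors. The log2 fold change was 1.24 (SE 0.22, adjusted p 0.00129) in CCA. The other 8 genes, which share these reads, had log2 fold changes of 1.14 to 1.18. Of the 9 genes as deposited, Ugt1a6a and Ugt1a7c passed for the difference from mixed tumors. Ugt1a6a was at 464.5, 432 and 340.5 CPM in the YAP-S CCA tumors, 875, 1029.6 and 866 in YAP-SY CCA, 610.3, 452 and 576 in YAP-S mixed and 735, 439 and 720.2 in YAP-SY mixed tumors, with a difference of 0.95 (SE 0.30, adjusted p 0.0469). Ugt1a7c was at 465, 430.4 and 340.3 CPM in the YAP-S CCA tumors, 866.5, 1003 and 853 in YAP-SY CCA, 606, 449 and 575 in YAP-S mixed and 725, 438 and 714 in YAP-SY mixed tumors, with a difference of 0.94 (SE 0.29, adjusted p 0.0487). In both, as in Ugt1a1, the YAP-SY CCA tumors were above all others, and most of the counts of the 3 genes are common to them.

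To part the genes as far as the counts allow, the lowest of the 9 counts in each tumor was taken as the common level. The remainder of each gene is given as its counts above that level. This split was chosen after the values had been seen. The common level was at 413.5, 378 and 291 CPM in the YAP-S CCA tumors, 766, 869 and 754 in YAP-SY CCA, 514, 389.5 and 497 in YAP-S mixed and 633.5, 361 and 640.1 in YAP-SY mixed tumors (log2 fold change in CCA 1.14, SE 0.22, adjusted p 0.00189). Counts of Ugt1a1 above it were at 135.6, 169.7 and 104 CPM in the YAP-S CCA tumors, 402.5, 385 and 337.5 in YAP-SY CCA, 187, 137 and 213 in YAP-S mixed and 264, 158.5 and 259 in YAP-SY mixed tumors. They rose in CCA by 1.46 (SE 0.24, adjusted p 0.000691), and the effect differed from that in mixed tumors by 1.12 (adjusted p 0.0392). Ugt1a1 so held the largest share of counts above the common level in all 12 tumors. Of its exon bases 58.9% are in all 9 genes, but 80.2% of its 50-base windows occur in another gene too. Its remainder may therefore hold shared reads as well. Counts of Ugt1a9, an enzyme of phenols and drugs, were at 14.5, 22.9 and 15.5 CPM in the YAP-S CCA tumors and 95.7, 35.4 and 46.4 in the YAP-SY CCA tumors, and at 25.5, 20.4 and 22.2 and 45.5, 22.7 and 24.9 in YAP-S and YAP-SY mixed tumors. The rise of Ugt1a9 (1.75, SE 0.36, adjusted p 0.0025) was largest in YAP-SY CCA 1, which held more than any other tumor. Ugt1a6a (1.31, adjusted p 0.000376), Ugt1a6b (1.19, adjusted p 0.000912), Ugt1a7c (1.13, adjusted p 0.000505), Ugt1a5 (1.58, adjusted p 0.00164) and Ugt1a10 (1.33, adjusted p 0.0383, at most 1.23 CPM) rose as well. The remainders of Ugt1a6a, Ugt1a6b and Ugt1a7c were alike, at 5057, 4484 and 5080 counts in YAP-S CCA 3. Of the 4219 exon bases of Ugt1a7c 1311 are in all 9 genes and 1915 in it alone, and it shares the most 50-base windows with Ugt1a6a. These remainders may hold the same reads and are not separate rises. Ugt1a2 had too few counts above the common level to pass (0.50, adjusted p 0.674). Ugt1a8 had such counts in 1 tumor only, since it set the common level in the others.

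**Figure D3:**
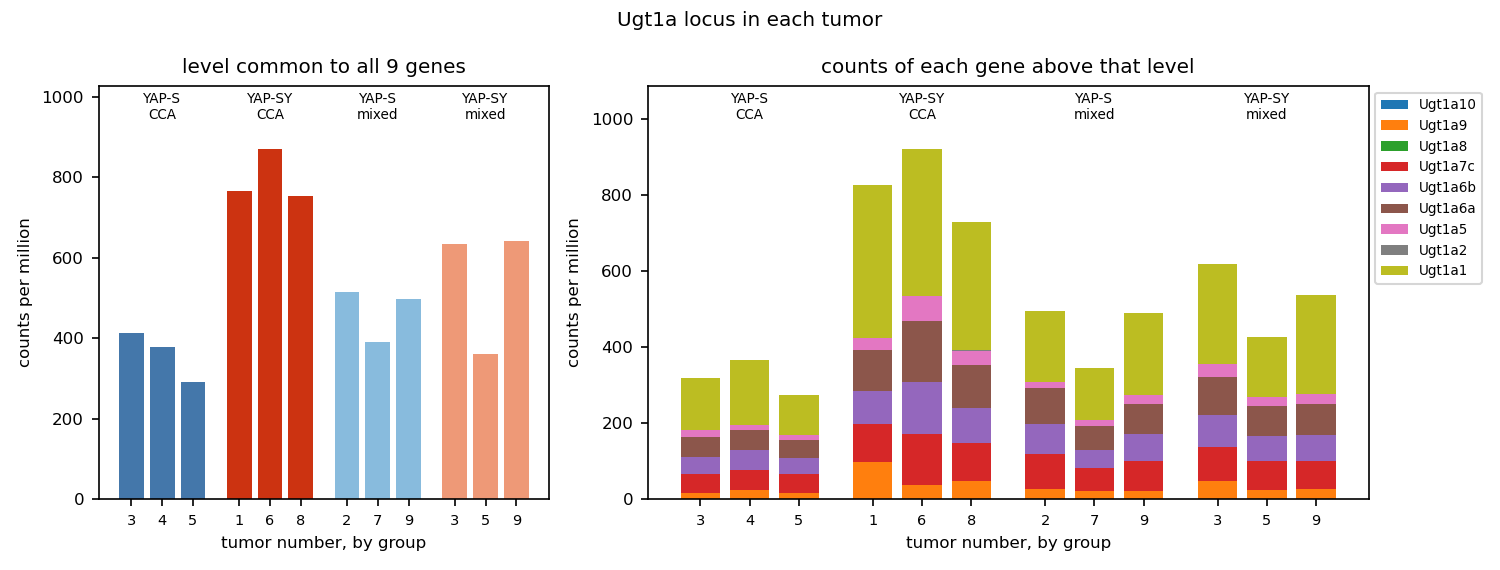
The Ugt1a locus in each tumor, in CPM: the level common to all 9 genes (left) and, stacked, the counts of each gene above it (right), with tumor numbers below the bars. Ugt1a1 is the largest part of every stack on the right, and the Ugt1a9 part is largest in YAP-SY CCA 1, at 95.7 CPM.

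Among the GST genes the largest rises were those of Gstk1, Gstp2, Gsto1 and Gsta3, and the mu class moved both ways. Gstk1 (ENSMUSG00000029864, chr6:42245935-42250441), the transferase of mitochondria and peroxisomes, was at 52.9, 52.02 and 41.3 CPM in the YAP-S CCA tumors, 110.4, 148 and 106 in YAP-SY CCA, 91.7, 59.4 and 79.8 in YAP-S mixed and 102, 62.7 and 84.1 in YAP-SY mixed tumors. Its CCA tumors lay on opposite sides of the mixed tumors. Its change was 1.32 (SE 0.21, adjusted p 0.000681) in CCA, and the difference from mixed tumors was 1.21 (SE 0.30, adjusted p 0.0201). Gsto1 (ENSMUSG00000025068, chr19:47854970-47864790), an omega transferase that reduces thiols and arsenic compounds, was at 44.5, 43.7 and 34.01 CPM in the YAP-S CCA tumors, 70.9, 95.5 and 82.5 in YAP-SY CCA, 56.2, 42.7 and 52.3 in YAP-S mixed and 66.99, 42.9 and 72.2 in YAP-SY mixed tumors. It rose in CCA by 1.03 (SE 0.20, adjusted p 0.00193), and YAP-SY CCA 1 was lower than YAP-SY mixed 9.

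Gsta3 (ENSMUSG00000025934, chr1:21240589-21265661), an alpha class enzyme that detoxifies aflatoxin epoxide in mice, held 1123, 1085 and 939.8 CPM in the YAP-S CCA tumors, 2114, 2376 and 1829.5 in YAP-SY CCA, 1809.8, 1325 and 1570.3 in YAP-S mixed and 1953, 1233 and 1572 in YAP-SY mixed tumors. It made up 93.8% of alpha class CPM. The YAP-S CCA tumors were the lowest 3 and YAP-SY CCA 8 lay within the mixed range. The change in CCA was 1.01 (SE 0.20, adjusted p 0.00196), with a difference from mixed tumors of 0.99 (SE 0.28, adjusted p 0.0324). Gsta4, which conjugates the lipid peroxidation product hydroxynonenal, rose by 0.74 on the log2 scale (adjusted p 0.0095). Gsta1 (0.54, adjusted p 0.494) and Gsta2 (0.61, adjusted p 0.193), whose coding sequences are 98% identical, did not pass.

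The pi class genes are near-copies, with coding sequences 98.1% identical, so the level of either is uncertain. Gstp2 (ENSMUSG00000038155, chr19:4040285-4042236) was at 38.7, 33.1 and 24.9 CPM in the YAP-S CCA tumors, 47.3, 104.5 and 71.8 in YAP-SY CCA, 84.98, 77.6 and 80.4 in YAP-S mixed and 80.9, 37.1 and 87.9 in YAP-SY mixed tumors. The YAP-SY CCA tumors spread widely, and YAP-S mixed tumors were above YAP-SY CCA 1 and 8. It rose in CCA by 1.21 (SE 0.32, adjusted p 0.0103), and the difference from mixed tumors was 1.45 (SE 0.45, adjusted p 0.0462). Without YAP-SY CCA 6 the change was 0.88 and did not pass, and by library size alone it was 0.64 and did not pass. Gstp1, the more abundant of the pair, was at 536.5, 861 and 457 CPM in the YAP-S CCA and 1235, 698 and 1216 in the YAP-SY CCA tumors. Its groups overlapped, since YAP-SY CCA 6 was below YAP-S CCA 4, and its change was 0.76 (SE 0.27, adjusted p 0.0415). This call was lost by library size alone, with only the 2 groups, without the 2 tumors whose library name starts with Mut1, and in 8 of the 12 fits without 1 tumor (all but those without YAP-S CCA 4, YAP-SY CCA 6 and YAP-SY mixed 5 or 9).

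The mu class genes, 7 neighbours on chromosome 3, did not move as 1 group. Gstm1 (ENSMUSG00000058135, chr3:108012255-108017973), the main hepatic mu enzyme, was at 1672, 1868 and 1490.2 CPM in the YAP-S CCA tumors, 2366, 2434 and 2852 in YAP-SY CCA, 2095, 1443 and 1808 in YAP-S mixed and 2013, 2228 and 2032 in YAP-SY mixed tumors. Its YAP-SY CCA tumors were the highest 3 of the 12, and the YAP-S CCA tumors lay within the mixed range. The rise was 0.61 (SE 0.17, adjusted p 0.0148); by library size alone it was 0.05 (adjusted p 0.83), and it did not pass without YAP-S CCA 5 (0.52) or without YAP-SY CCA 8 (0.52). Gstm2 (ENSMUSG00000040562, chr3:107981702-107986453) was the 1 GST gene that fell. It was at 131, 167 and 135 CPM in the YAP-S CCA tumors, 76.8, 115 and 104 in YAP-SY CCA, 77.5, 94.7 and 84.8 in YAP-S mixed and 98.02, 82.99 and 114 in YAP-SY mixed tumors. The YAP-S CCA tumors were the highest 3 of the 12, and the 9 others overlapped. The change in CCA was -0.55 (SE 0.17, adjusted p 0.0248); it did not pass without YAP-S CCA 4 (-0.43) or without YAP-SY CCA 1 (-0.40), and the difference from mixed tumors did not pass either (-0.75, adjusted p 0.057). Gstm4 (0.93, adjusted p 0.0155), Gstm6 (0.78, adjusted p 0.00795) and Gstm7 (0.74, adjusted p 0.00125) rose, and Gstm3 (0.43, adjusted p 0.37) and Gstm5 (-0.41, adjusted p 0.278), a form best known from brain and testis, did not pass. Gstm4 did not pass without YAP-S CCA 5 or without YAP-SY CCA 6. By library size alone Gstm1, Gstm4, Gstm6 and Gstm7 did not pass, and Gstm5 fell with Gstm2. Of the theta class Gstt3 rose (0.81, adjusted p 0.0295), Gstt1 (0.52, adjusted p 0.0881) and Gstt2 (0.63, adjusted p 0.158) did not pass, and Gstt2 was the 1 member with an unadjusted p under 0.05 in mixed tumors (0.75, p 0.0456). The call of Gstt3 was lost by library size alone and without YAP-S CCA 4 or 5 or YAP-SY CCA 6 or 8. Gstt4 and Gsto2 were too low to test, at no more than 0.114 and 0.179 CPM.

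**Figure D4:**
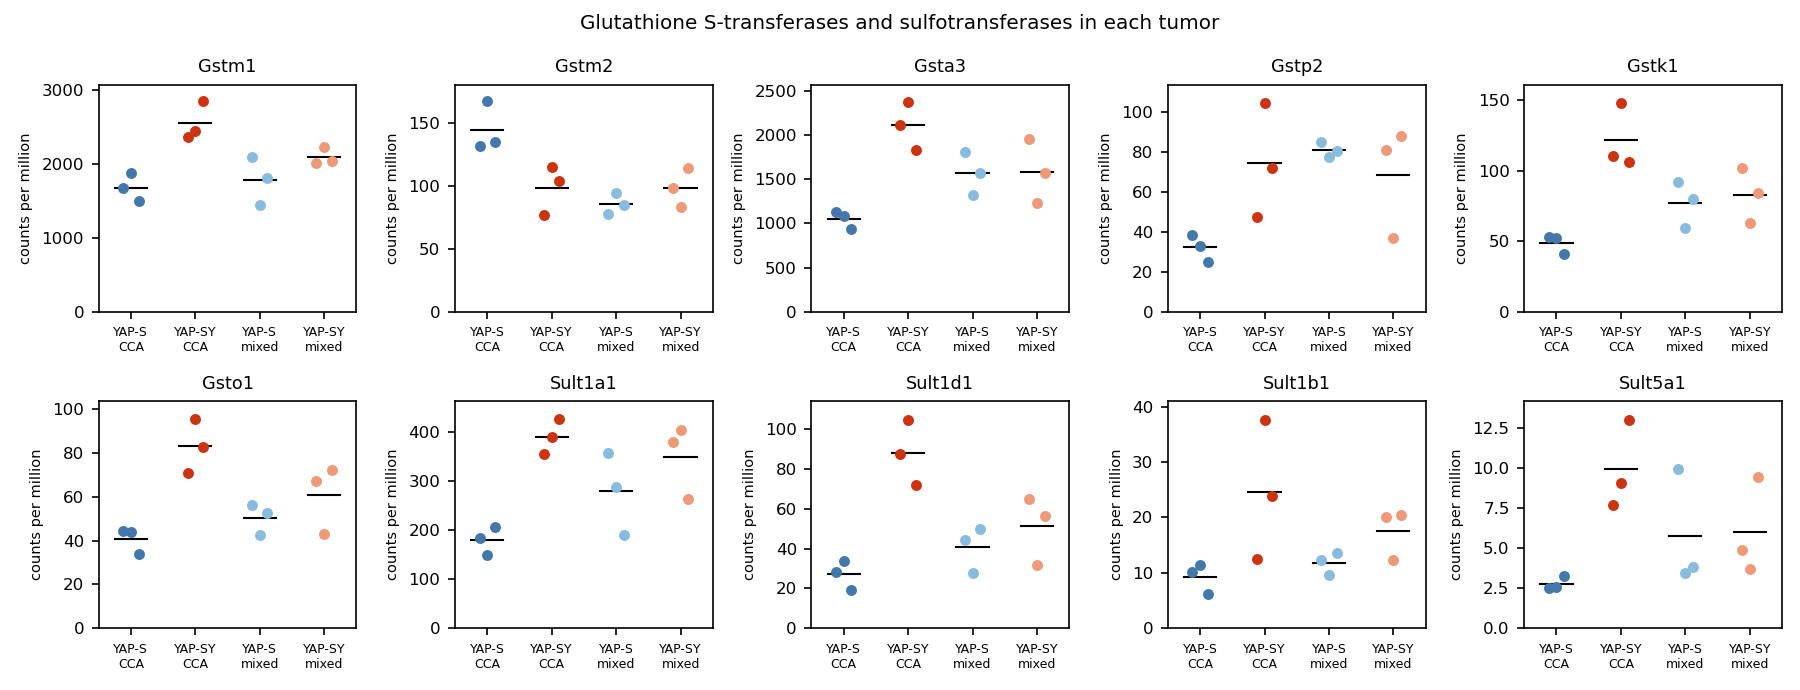
Level in CPM (from 0) of 6 GST genes and 4 SULT genes in each tumor, by group; a point is a tumor and a bar the mean of 3. Gstm2 is highest in the 3 YAP-S CCA tumors, whereas Gstm1, Gstk1, Sult1a1 and Sult1d1 are lower in every YAP-S CCA tumor than in every YAP-SY CCA tumor.

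Of the SULT family, all 4 tested SULT1 genes rose, and the SULT2 genes differed. Sult1a1 (ENSMUSG00000030711, chr7:126672865-126676432), the phenol sulfotransferase, was at 185, 149 and 206.5 CPM in the YAP-S CCA tumors, 354.5, 389 and 427 in YAP-SY CCA, 357.5, 288 and 190.2 in YAP-S mixed and 379, 403 and 264 in YAP-SY mixed tumors. The CCA groups were apart, and mixed tumors overlapped with both. The rise in CCA was 1.12 (SE 0.23, adjusted p 0.00266) and by library size alone 0.54 (adjusted p 0.0886). Sult1d1 (ENSMUSG00000029273, chr5:87554645-87569027), which sulfates catecholamines in mice, was at 28.1, 33.7 and 19.2 CPM in the YAP-S CCA tumors, 87.5, 104 and 72.04 in YAP-SY CCA, 44.3, 27.98 and 49.8 in YAP-S mixed and 65.1, 31.8 and 56.5 in YAP-SY mixed tumors. Its YAP-SY CCA tumors were the highest 3 of the 12. In CCA it changed by 1.70 (SE 0.29, adjusted p 0.001), and the difference from mixed tumors was 1.37 (SE 0.41, adjusted p 0.0405). Sult1b1 (ENSMUSG00000029269, chr5:87513339-87538195), a thyroid hormone sulfotransferase, was at 10.1, 11.4 and 6.23 CPM in the YAP-S CCA tumors, 12.5, 37.5 and 23.9 in YAP-SY CCA, 12.3, 9.600 and 13.6 in YAP-S mixed and 20.02, 12.3 and 20.4 in YAP-SY mixed tumors. It rose in CCA by 1.41 (SE 0.35, adjusted p 0.00793), and YAP-SY CCA 1 stood near the YAP-S CCA tumors. Sult1b1, Sult1d1 and Sult1e1 adjoin the Ugt2 cluster, so that 12 members lie between 86889767 and 87591611 of chromosome 5. Sult1e1, the estrogen sulfotransferase, was not tested and reached 0.204 CPM at most. Sult1c2 rose (0.78, adjusted p 0.0242), a call lost by library size alone and without YAP-S CCA 3 or 4 or YAP-SY CCA 6, and Sult1c1 had no counts.

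Sult5a1 (ENSMUSG00000000739, chr8:123142847-123158315), an enzyme of unknown substrate, was at 2.503, 2.55 and 3.28 CPM in the YAP-S CCA tumors, 7.703, 9.08 and 12.97 in YAP-SY CCA, 9.93, 3.44 and 3.82 in YAP-S mixed and 4.86, 3.697 and 9.45 in YAP-SY mixed tumors. It rose in CCA by 1.84 (SE 0.43, adjusted p 0.0056), and 1 mixed tumor of each model reached the YAP-SY CCA range. Sult2b1 (ENSMUSG00000003271, chr7:45729983-45759612), the cholesterol sulfotransferase typical of epithelia such as skin, went the other way. It was at 1.89, 2.11 and 2.86 CPM in the YAP-S CCA tumors, 0.0227, 0.168 and 0.417 in YAP-SY CCA, 1.43, 1.71 and 0.842 in YAP-S mixed and 0.599, 1.56 and 1.34 in YAP-SY mixed tumors, so every level was low. The YAP-SY CCA values rest on 1, 6 and 15 counts, against 187, 181 and 122 in YAP-S CCA tumors. The change in CCA was -3.52 (SE 0.66, adjusted p 0.0016), with a difference from mixed tumors of -3.34 (SE 0.86, adjusted p 0.0242). Sult2a7 rose from 0.39 to 1.81 CPM in the group means (2.18, SE 0.57, adjusted p 0.00945). Sult2a1, the hydroxysteroid sulfotransferase, held 114 counts in YAP-SY CCA 1 and 0 in YAP-SY CCA 6 and 8, against 3, 1 and 0 in YAP-S CCA tumors, and did not pass (5.54, SE 2.12, adjusted p 0.0547). Sult2a2 (1.20, adjusted p 0.478) and Sult4a1 (-0.36, adjusted p 0.675) did not pass either. Sult2a3 and Sult2a4 had no counts, and Sult2a5, Sult2a6, Sult3a1 and Sult6b1 were at 0.0702 CPM or less in every tumor.

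Per kilobase of the deposited gene length, and leaving out the Ugt1a genes, Gstm1 was the most abundant member, at a mean of 1453 CPM per kb over the 12 tumors. Gstp1 followed at 1069, Ugt2b5 at 480.2, Gsta3 at 363 and Ugt2b36 at 337 CPM per kb. Below them came Ugt2b1 (210.3), Sult1a1 (199) and Ugt2b34 (146). On this scale Ugt2b5 was at 248 ± 33.3 CPM per kb in YAP-S CCA tumors, next to Gsta3 at 241.5 ± 22.3 (SD, n = 3), a gap smaller than either spread. In YAP-SY CCA tumors Ugt2b5 was at 770.5 ± 136 and Gsta3 at 485 ± 62.9 CPM per kb.

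The difference of the YAP-SY effect between CCA and mixed tumors was tested directly. It was positive for 16 members, against a background of 5.02%, and negative for Sult2b1, against 10.2%, with a median of 0.94 over the members and 0.01 over all genes. The 16 were the 7 Ugt2b genes, Ugt2a3, Ugt3a1, Ugt3a2, Ugt1a6a, Ugt1a7c, Gsta3, Gstk1, Gstp2 and Sult1d1. Calls for Ugt2b38, Ugt2b35, Ugt2b36, Ugt2b5 and Ugt2a3 were made under every alternative tried, and 6 calls of the 17 were made whichever tumor was left out, Ugt2b34 being the sixth. Only 6 members passed without YAP-S CCA 5, and also without YAP-S mixed 2 or 9; 8 passed without YAP-SY CCA 6 or YAP-SY mixed 5, 9 without YAP-S CCA 3 and 11 without YAP-S CCA 4. In these fits 5.59% to 10.4% of all genes passed in either direction, against 15.2% with all 12 tumors. In CCA against mixed tumors of YAP-S, no member passed (background 0); 17 had an unadjusted p under 0.05, as had 19.8% of all genes, 16 of them were lower in CCA, and the UGT median was -0.61. There DESeq2 called 12 members lower (2.6% of all genes) and 1 higher (5.66%), and limma-voom with sample weights 21 lower (8.85%) and 1 higher (10.8%). In CCA against mixed tumors of YAP-SY the UGT median was 0.55, and 22 members had an unadjusted p under 0.05, as had 21.6% of all genes. These contrasts share tumors with each other, so they are not separate evidence.

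Hepatocyte markers moved in the same comparison, so family sums were also set against them, a ratio chosen after the values had been seen. Per 1000 CPM of the 12 hepatocyte markers, UGT2B transcripts were at 23.9 to 25.3 CPM in the YAP-S CCA and 24.8 to 31.15 in the YAP-SY CCA tumors, ranges that overlap. For Gstk1 the ranges were 0.694 to 0.740 and 0.659 to 0.822, and for the SULT1 genes 2.72 to 4.003 and 2.79 to 3.29, which overlap as well. Mu class transcripts were at 30.5 to 32.6 in the YAP-S CCA and 16.6 to 21.9 in the YAP-SY CCA tumors, with mixed tumors at 17.3 to 25.9. The alpha class ran from 15.85 to 17.3 and from 12.25 to 14.0, and the theta class from 2.07 to 2.56 and from 1.24 to 1.79, without overlap. The pi class (8.05 to 12.3 and 4.455 to 7.97), the omega class (0.574 to 0.624 and 0.429 to 0.532) and the common level of the Ugt1a locus (4.89 to 5.79 and 4.635 to 4.82) were also lower in every YAP-SY CCA tumor. Thus 6 of 13 subfamilies were lower without overlap on this scale, and the other 7 overlapped. The share of all genes lower without overlap was not computed. Alb was the largest part of the marker sum, at 33888 to 38759 CPM in YAP-S CCA and 98823 to 114473 in YAP-SY CCA tumors. It rose by 1.51 on the log2 scale, against a median of 0.92 over the 12 markers. The ratio therefore weighs Alb most, and lower here largely means a smaller rise than that of Alb. Whether the hepatocytes of the groups differ was not tested.

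**Figure D5:**
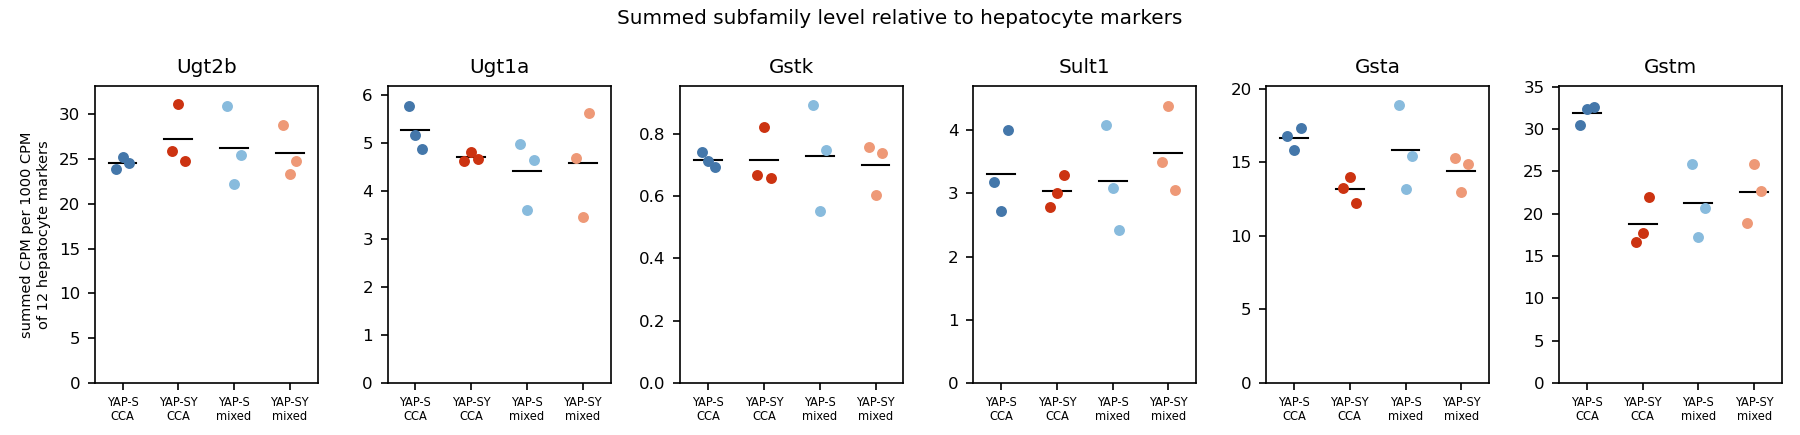
Summed CPM of 6 subfamilies per 1000 CPM of 12 hepatocyte markers (axes from 0), by tumor and group; bars are means of 3. For Gstm the YAP-S CCA tumors, at 30.5 to 32.6, lie above the 9 others, whereas the groups of Ugt2b, Gstk and Sult1 overlap.

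The genes around these enzymes were counted from lists of textbook genes in the same CCA comparison. In it 18.3% of all 18318 genes tested rose and 20.8% fell. The lists are short, so a count near these shares is not a result about its list. Of 19 other conjugating enzymes 13 rose and 2 fell (median 1.13). Acsm5 (1.75) and Glyat (1.43), enzymes of glycine conjugation, and Gstz1 (1.28), which degrades tyrosine metabolites, had the smallest p-values. Mgst2 (-1.90) and Hpgds (-1.46), transferases that make leukotriene and prostaglandin mediators, fell. The fall of Mgst2 rests on 3, 7 and 4 counts in the YAP-SY CCA tumors, against 21, 49 and 27 in YAP-S CCA. Of 16 genes of cofactor supply 10 rose and 1 fell (median 0.89). Ugp2 (1.28) and Ugdh (0.96), which make UDP-glucuronic acid, its carrier Slc35d1 (1.17) and Gclc (1.07), the limiting enzyme of glutathione synthesis, rose. The pair of PAPS synthases parted, with Papss2 higher (1.34) and Papss1 lower (-0.66). Of 10 transporters of conjugates 6 rose (median 0.82), among them Abcc2 (1.34), which exports glucuronides into bile, Slco1a4 (2.20) and Slco1b2 (1.69). Of 3 deconjugating enzymes 0 rose and Gusb, the beta-glucuronidase, fell (-0.45).

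Of 12 regulators 6 rose and 0 fell (median 0.52): Nr1h4 (1.07), the bile acid receptor, Hnf4a (1.09), Ppara (1.45), Nr1i3 (1.25), Nr1i2 (0.74) and Rxra (0.59). Nfe2l2, which encodes NRF2 (0.07), and Ahr (0.03) did not pass. Of 13 NRF2 targets outside the families 4 rose and 2 fell (median 0.23), where 18.3% of all genes rose and 20.8% fell. Nqo1 (1.08), Gclc, Gclm (0.81) and Ephx1 (0.66) rose, and G6pdx (-1.23) and Akr1b8 (-2.36) fell. Of the cell markers, 9 of 12 hepatocyte genes rose (median 0.92), 9 of 12 cholangiocyte genes fell (median -2.06) and 9 of 10 fibroblast and stellate genes fell (median -2.14). Endothelial and macrophage genes went both ways, 2 up and 2 down of 8 and of 6, too few to set apart from the shares of all genes. Of T and NK cell genes 5 of 7 fell, of neutrophil genes 4 of 6 fell, and of 4 B cell genes none passed. Many of these enzymes differ between the sexes in mouse liver. Here 6 of 7 male-biased and 3 of 6 tested female-biased liver genes rose, as did 3 of 5 sex-linked genes. The 3 were the Y-linked Ddx3y (1.04), Eif2s3y (0.75) and Uty (0.66). In CPM by library size, Xist was at 0.3954 or less in every tumor. Ddx3y was at 52.03 or more, Eif2s3y at 56.82, Kdm5d at 26.7 and Uty at 15.05, so every tumor had the pattern of male tissue. The share of the shifts in these listed genes in the enzymes' values was not tested.

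SB1 cells, measured in a table of their own and given in CPM by library size, held few of these transcripts. In all 3 samples 39 members were below every tumor, and 11 had no counts. The share of all genes below or above every tumor was not computed, so such numbers of members cannot be read as particular to these enzymes. Tables made separately may differ in scale, and no test was made between them. Ugt2b34 was at 282, 318 and 216 CPM, whereas Ugt2b5 was at 0.3805 to 1.4995 CPM and Gstk1 at 0.158 CPM or less. In all 3 samples 6 members exceeded every tumor: Gsta4 (229 to 446 CPM, tumors up to 67.5), Gsto1 (199 to 221, tumors up to 74.1), Sult1c2 (20.2 to 30.7, tumors up to 9.50), Sult2b1 (5.30 to 8.33, tumors up to 3.70), Gsto2 (1.11 to 2.78, tumors up to 0.1998) and Gstt4 (0.228 to 0.557, tumors up to 0.122).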

How the data were processed

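RNA from tumor nodules and cell lines was sequenced after TruSeq mRNA library preparation, per the labels' protocols. STAR and mm10 are named in the submitters' processing notes, with no version; annotation and counting tool are not given in the sources used here. The authors deposited corrected counts per gene for the 12 tumors, without saying what was corrected, and raw counts for SB1 cells in another table. In the latter, 3 columns matched no sample label and were not used. In the tumor table, 27 symbols had the form of dates. Members and listed genes were matched by the deposited symbol.

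Genes were filtered with filterByExpr by group, which left 18318. All 12 tumors entered 1 fit with a term per group in edgeR 4.0.16 (R 4.3.3), with TMM scaling, the quasi-likelihood F-test and Benjamini-Hochberg adjustment over all genes tested, threshold 0.05. The fit was tested on simulated data. SB1 counts were divided by library size only.

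The members, the lists of pathway and marker genes and the tests were chosen with earlier results of these data known. Values in every tumor are given for up to 4 rises and 4 falls per family at 5 CPM or more, the 2 most abundant members per family and every member past the threshold for the difference between histologies; others named lie outside that rule. Alternatives were DESeq2 size factors, library size alone, DESeq2 1.42.0, limma-voom (limma 3.58.1) with sample weights or with the label number as a block, no count filter, only the groups compared, and leaving out tumors. All 58 members occur in GENCODE M21, 42 with the deposited coordinates, and 50 had a RefSeq promoter window. Counting error alone is small at these depths for abundant members, but not for those of few counts such as Sult2b1, Sult2a1 and Sult2a7. No interval from it is given.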

Additional observations from a re-analysis of the deposited data

Results flagged for a closer look

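For 17 members the effect of YAP-SY differed between CCA and mixed tumors by the test of the difference itself (edgeR's quasi-likelihood test, adjusted over all genes). The log2 difference was 2.63 for Ugt2b38 (adjusted p 0.00371), 2.10 for Ugt2b37 (0.0253), 1.45 for Ugt2b5 (0.0133) and 1.34 for Ugt2b36 (0.014). For Ugt2b35 it was 1.26 (adjusted p 0.00634), for Ugt2b34 1.11 (0.0151), for Ugt2b1 1.35 (0.0499) and for Ugt2a3 1.29 (0.012). Ugt3a1 differed by 1.26 (adjusted p 0.0443) and Ugt3a2 by 1.30 (0.0241). At the Ugt1a locus Ugt1a6a differed by 0.95 (adjusted p 0.0469) and Ugt1a7c by 0.94 (0.0487), on reads they largely share. Gsta3 differed by 0.99 (adjusted p 0.0324), Gstk1 by 1.21 (0.0201), Gstp2 by 1.45 (0.0462) and Sult1d1 by 1.37 (0.0405). Sult2b1 alone differed downwards, by -3.34 (adjusted p 0.0242).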

How the results depend on the processing

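Of the 38 members called in CCA, 27 kept direction and call under every alternative (the split of the Ugt1a counts aside for that locus); Gsta4, Gstm1, Gstm2, Gstm4, Gstm6, Gstm7, Gstp1, Gstp2, Gstt3, Sult1a1 and Sult1c2 did not. Without the 2 tumors whose library name starts with Mut1, Gstm1, Gstm2, Gstm4, Gstp1, Gstt3 and Sult1c2 were lost. The count of members higher in CCA was 36 with DESeq2 size factors and with the replicate block (label number, limma-voom), and 32 to 37 with 1 tumor left out. By library size alone it was 26 (4.15% of all genes), with 3 lower (44%). The count of lower members was 1 without the Mut1 tumors, and 1 to 2 with 1 tumor left out. Members changed in CCA against mixed YAP-S tumors were 3 by library size alone (3.88% of all genes), 13 by DESeq2 (8.26%), 22 by limma-voom with sample weights (19.7%), 5 without a count filter (2.06%), 14 with only the 2 groups (13.5%), 8 with the block (5.41%) and 0 to 5 with 1 tumor left out. In YAP-SY the higher count was 4 by DESeq2 (2.46% of all genes), 0 by limma-voom with weights, with the block and with only the 2 groups, and 0 to 1 with 1 tumor left out. The lower count was 1 by library size alone (10.9% of all genes), by DESeq2 (7.55%), without a count filter (2.89%) and without the Mut1 tumors (3.43%), and 0 to 1 with 1 tumor left out. The difference between histologies was called for 9 members by library size alone (23.6% of all genes), 27 by DESeq2 (23.1%), 27 by limma-voom with weights (16.4%), 25 with the block (16.3%) and 6 to 21 with 1 tumor left out. The cause of these moves was not tested. With the Ugt1a counts split, 27 of the 39 other members still rose and 2 fell in CCA. Tumors with the same number, in 3 pairs, deviated together by 0.18, 0.35 and 0.09, with a block correlation of 0.22, and not every tumor correlated best with its own number, so the numbers were treated as names.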

Other observations

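A few conjugating enzymes stood in the tumor table under older names and so were not members by the rule. 2810007J24Rik, the gene now called Sult2a8, a hepatic sulfotransferase of bile acids, stood at 299, 356 and 195 CPM (YAP-S CCA 3, 4 and 5) and at 663, 1436 and 846 CPM (YAP-SY CCA 1, 6 and 8). YAP-S mixed tumors held 480.4, 345 and 520.5 CPM and YAP-SY mixed tumors 709.6, 316 and 668 CPM. It was higher in every YAP-SY CCA tumor than in every YAP-S CCA tumor (log2 fold change 1.79, SE 0.35, edgeR adjusted p 0.00211), and the difference from mixed tumors did not pass (1.46, adjusted p 0.0605). Its CPM was far above that of any member of the SULT2 family, all of which were under 4 CPM in the group means. BC021614, now Gstp3, did not pass (0.51, adjusted p 0.161), and Gm766 (Sult6b2) and Gm4794 (Sult3a2) had almost no counts.

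At the Ugt1a locus SB1 cells held another mix of counts above the common level than the tumors. Above the level common to the 9 genes, of 2048, 3840 and 2421 counts, Ugt1a7c had 1212, 2187 and 1513 counts and Ugt1a6a 1013, 1725 and 1048, whereas Ugt1a1 had 41, 55 and 64 and Ugt1a9 had 0 in all 3 samples. In the tumors Ugt1a1 had the most counts above that level.

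Of the 39 tested members outside the Ugt1a locus, YAP-SY CCA 1 was the lowest of its group in 25, YAP-S CCA 5 was the lowest of all 12 tumors in 25 and YAP-SY CCA 6 was the highest of all 12 in 20. The share of all genes with these tumors at the extremes was not computed. These numbers therefore cannot be read as particular to the members.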
